A study of Mus musculus with 17 samples.

Results

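The genes described here are 10 ligands and receptors of the vascular endothelial growth factor (VEGF) and angiopoietin systems, measured by RNA sequencing in mouse choroid plexus. They were taken by name, as the rows of the deposited count table whose Ensembl identifiers map to Vegfa, Vegfb, Vegfc, Kdr, Flt1, Nrp1, Angpt1, Angpt2, Tek and Tie1 in GENCODE release M21. All 10 were found among the 55487 genes of the table, and all 10 passed the filter on low counts that left 16851 genes for testing. The choice was made by name, with earlier results of these data known.

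The choroid plexus is the folded tissue of the brain ventricles that secretes cerebrospinal fluid, with an epithelium around a core of leaky, fenestrated capillaries. Whole choroid plexus was dissected from the lateral ventricles of C57BL/6 mice, and libraries were made with the SMART-Seq v4 kit for small amounts of RNA. The control group (CTRL) had 5 libraries. Dextran sodium sulfate (DSS), which injures the colon lining and induces colitis, had been given for 1 day in T1, for 3 days in T3, and for 3 days followed by 2 days of water in T5, with 4 libraries in each. The labels name no genotype or agent beyond these and do not say that the libraries of a group came from separate animals, so the p-values measure the spread between these libraries, which can be technical in part.

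VEGF-A is the main growth and permeability signal for blood vessels. It acts through the receptor tyrosine kinase VEGFR2 (Kdr), while VEGFR1 (Flt1) binds VEGF-A and VEGF-B tightly with weak signalling, and neuropilin 1 (Nrp1) serves as a co-receptor. VEGF-C acts mainly on lymphatic and other endothelium. Angiopoietin 1 keeps vessels quiet through the receptor Tie2 (Tek), angiopoietin 2 opposes it in many settings, and Tie1 is a related receptor that modulates Tie2. In the choroid plexus the epithelium is a known source of VEGF-A, and VEGF-A is known to maintain the fenestrae of the capillaries.

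The sequences upstream of 4 of these genes are shown because 3 of them are receptors that stood high in the same libraries and the fourth is the ligand that did not. Each run is the 250 bases before the RefSeq start site, 5′ to 3′ on the gene's strand, from the RefSeq promoter table on GRCm38. The Kdr window is chr5:75978456-75978705 on the minus strand and that of Flt1 is chr5:147726012-147726261 on the minus strand. The Tek window is chr4:94739039-94739288 on the plus strand and that of Vegfa is chr17:46032378-46032627 on the minus strand. Capitals mark GGAA on either strand, the core motif of ETS-family factors, which are known regulators of endothelial genes.
Kdr: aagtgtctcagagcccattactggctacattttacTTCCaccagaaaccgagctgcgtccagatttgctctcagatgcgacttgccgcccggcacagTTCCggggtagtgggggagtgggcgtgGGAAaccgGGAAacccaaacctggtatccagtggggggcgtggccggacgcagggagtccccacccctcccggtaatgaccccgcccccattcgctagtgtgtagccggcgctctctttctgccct
Flt1: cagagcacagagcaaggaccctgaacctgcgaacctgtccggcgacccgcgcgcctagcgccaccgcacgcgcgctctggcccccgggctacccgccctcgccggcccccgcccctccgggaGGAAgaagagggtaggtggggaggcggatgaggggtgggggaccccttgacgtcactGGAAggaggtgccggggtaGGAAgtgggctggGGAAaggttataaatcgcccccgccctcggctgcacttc
Tek: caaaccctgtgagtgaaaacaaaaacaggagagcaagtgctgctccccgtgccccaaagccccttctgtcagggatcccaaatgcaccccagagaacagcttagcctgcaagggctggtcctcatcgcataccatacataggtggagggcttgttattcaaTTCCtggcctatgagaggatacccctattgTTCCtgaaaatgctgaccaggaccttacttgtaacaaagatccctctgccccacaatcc
Vegfa: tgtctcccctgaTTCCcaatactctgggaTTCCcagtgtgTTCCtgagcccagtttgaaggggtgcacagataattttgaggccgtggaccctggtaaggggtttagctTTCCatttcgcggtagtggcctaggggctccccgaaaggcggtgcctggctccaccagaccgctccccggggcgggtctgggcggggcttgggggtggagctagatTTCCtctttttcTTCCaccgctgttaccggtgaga

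The motif was present 4 times in the Kdr sequence, 4 times in that of Flt1, 2 times in that of Tek and 6 times in that of Vegfa. Of the 32851 promoters of this length in the table, 76.8% held at least 2 copies, 33.4% at least 4 and 8.69% at least 6. Tie1, whose window is not shown, held 7 copies, a number reached by 3.82% of promoters. The RefSeq start lies 212 bases inside the GENCODE gene for Tie1 and 469 for Nrp1. The Tie1 window is therefore mostly, and that of Nrp1 wholly, within the annotated gene. Vegfa had 2 entries in the promoter table, and the entry nearest the annotated 5′ end was used. The core of the site bound by hypoxia-inducible factors reads ACGTG or GCGTG. The letters ACGTG (searched with CACGT) were found in none of these 4 windows. They were also in none of the 8 of 10 members with an entry, against 16.6% of all promoters. The other form, GCGTG (with CACGC), occurred 2 times in the Kdr window and 1 time in that of Flt1. At least 1 copy was held by 4 of the 8 member windows and by 28.2% of all promoters. The GC content of the 8 windows ran from 51.2% (Tek) to 76.4% (Vegfb), with a median of 52.4% over all promoters. These shares take no account of it. No GCGTG match overlapped a GGAA match. Such matches are descriptions of the letters in the window.

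On GRCm38 the genes lie, by the GENCODE annotation, at chr17:46016993-46032369 (Vegfa), chr19:6982473-6987651 (Vegfb), chr8:54077606-54187096 (Vegfc), chr5:75932827-75978458 (Kdr) and chr5:147561604-147726011 (Flt1). Nrp1 lies at chr8:128358604-128503363, Angpt1 at chr15:42424723-42676977, Angpt2 at chr8:18690263-18741562, Tek at chr4:94739289-94874976 and Tie1 at chr4:118471191-118490061. All are protein-coding genes.

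Library totals ran from 8875921 to 26839417 counts. All 11 markers of the choroid plexus epithelium were detected in every library, with summed levels of 97520 to 221781 CPM (counts relative to library size, after TMM scaling, the trimmed mean of M-values). The titles are numbered, and the 4 highest numbers, 28 and up, belong to T1 replicates 2 to 4 and to T3 replicate 4. These 4 libraries had mitochondrial shares of 1.86 to 2.04% and 26356 to 30293 detected genes, against 2.50 to 3.75% and 21315 to 24824 in the other 13. The labels name no batch. Since 3 of the 4 T1 libraries belong to this set, 1 day of DSS and this set largely cannot be told apart.

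In control tissue the ligands Vegfb and Vegfa were the most abundant members per length of transcript. Vegfb stood at 57.4 and Vegfa at 18.1 CPM per kb of exon (group means, n = 5), followed by Nrp1 at 5.56, Angpt2 at 4.90 and Kdr at 2.51. Tie1 at 1.96, Vegfc at 1.80, Angpt1 at 1.70, Tek at 1.45 and Flt1 at 1.01 CPM per kb closed the order. The ranges of the CTRL libraries did not overlap between Vegfb and Vegfa, between Vegfa and Nrp1, or between Angpt2 and Kdr. Every other pair of neighbours overlapped, so the order from Kdr down to Flt1 is not resolved by these ranges. Within each of the 5 libraries, however, Nrp1 lay above Angpt2, Angpt1 above Tek and Tek above Flt1. Exon length is that of all annotated transcripts of a gene merged, 13 for Vegfa and 6 for Flt1, and the counts do not separate isoforms such as the soluble form of VEGFR1.

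**Figure D1:**
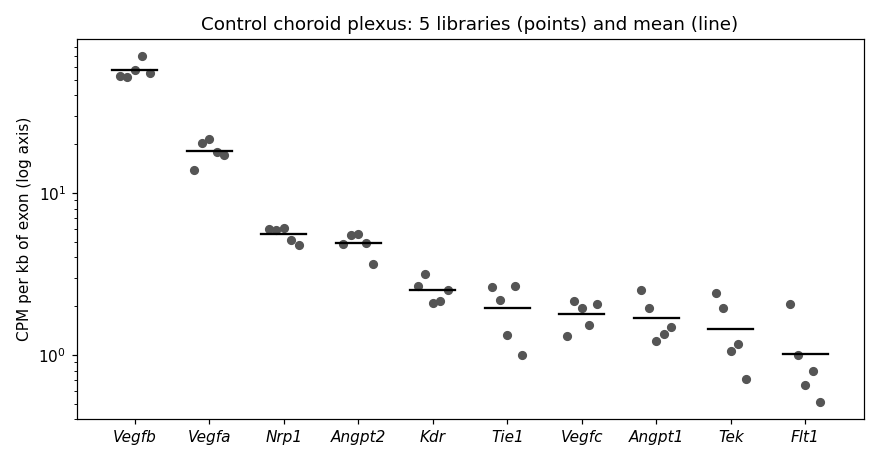
Levels of the 10 genes in the 5 CTRL libraries as TMM-scaled CPM per kb of exon, on a log axis; each point is a library and the line is the group mean. Vegfb and Vegfa lie above the other 8 genes, and the ranges of the 5 lowest genes overlap.

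After 1 day of DSS the 5 receptors stood higher than in CTRL while Vegfa did not, and each receptor was higher in the same 3 T1 libraries than in the other one. By edgeR's quasi-likelihood test with Benjamini-Hochberg adjustment over all genes, 0 of the 10 members passed a threshold of 0.05, as did 0% of the 16851 genes tested. At an unadjusted p under 0.05, 6 members were higher (Kdr, Flt1, Nrp1, Tek, Tie1 and Vegfc) against 9.43% of all genes, and 1 was lower (Vegfb) against 11.7%. The groups did not overlap for 3 members that were higher (Nrp1, Tek and Vegfc), where 2.90% of all genes were so, and for 1 that was lower (Vegfb), where 3.86% were. The median log2 fold change was 0.81 over the members and 0.08 over all genes, with 8 of 10 members and 57.7% of all genes above 0. In bulk tissue a larger number of cells of a type and more RNA per cell cannot be told apart, and this holds for every level given here.

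Kdr, the signalling receptor for VEGF-A, read 23.9, 28.6, 18.8, 19.5 and 22.7 CPM in the CTRL libraries and 24.5, 84.5, 113 and 83.9 CPM in T1 replicates 1 to 4. T1 replicate 1 lay within the CTRL range, and the other 3 were above every CTRL library. The log2 fold change was 1.75 ± 0.33 (SE), with an approximate 95% interval of 1.03 to 2.48 and an edgeR adjusted p of 0.121, all 4 T1 libraries being above the CTRL mean. No gene tested had a lower adjusted p, but several genes can share an adjusted value, so this does not rank Kdr first.

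Flt1, the decoy-like receptor, read 28, 13.4, 8.79, 10.8 and 6.90 CPM in CTRL and 17.3, 37.3, 57.2 and 57.0 CPM in T1. CTRL replicate 1 stood above the other controls, and T1 replicate 1 lay inside the CTRL range. The log2 fold change was 1.64 ± 0.46 (interval 0.65 to 2.63, edgeR adjusted p = 0.138), with 4 of 4 T1 libraries above the CTRL mean. Among the members Flt1 had the widest spread within CTRL, a coefficient of variation of 62.0% against 10.5% for Nrp1.

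Nrp1, the neuropilin co-receptor, read 58.5, 57.4, 59.5, 50.0 and 46.8 CPM in CTRL and 66.1, 113, 134 and 91.2 CPM in T1. Here T1 replicate 1 also lay above every control, though nearer to the controls than to the other T1 libraries. The log2 fold change was 0.89 ± 0.19 (interval 0.48 to 1.31, edgeR adjusted p = 0.128), in the same direction in 4 of 4 libraries.

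For the angiopoietin receptors, too, replicate 1 was the lowest T1 library. Tek, which encodes Tie2, read 11.3, 9.12, 5.00, 5.48 and 3.36 CPM in CTRL and 12.6, 21.3, 19.0 and 24 CPM in T1, with no overlap and a log2 fold change of 1.49 ± 0.42 (edgeR adjusted p = 0.138, 4 of 4 libraries higher). Tie1 read 12.9, 10.7, 6.56, 13 and 4.93 CPM in CTRL and 10.6, 19.0, 30.6 and 24.1 CPM in T1, a log2 fold change of 1.13 ± 0.37 (edgeR adjusted p = 0.140). For Tie1, T1 replicate 1 lay inside the CTRL range and the other 3 above it.

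Ligand levels in T1 did not share one direction. Vegfa read 59.0, 87.4, 91.9, 76.8 and 73.6 CPM in CTRL and 71.7, 93.4, 87.6 and 62.6 CPM in T1. The T1 values lay among the controls or just above them, with a log2 fold change of 0.02 ± 0.15 and an interval of -0.30 to 0.34, which leaves out a change as large as that of Nrp1. Vegfb, a ligand of VEGFR1 and neuropilin 1, read 84.1, 83.7, 92.6, 112 and 88.6 CPM in CTRL and 79.1, 58.3, 69.0 and 64.9 CPM in T1. All 4 T1 libraries were below all 5 controls, and the log2 fold change was -0.44 ± 0.13 (interval -0.73 to -0.16, edgeR adjusted p = 0.138). Vegfc, the ligand of the lymphatic receptor VEGFR3, read 3.22, 5.24, 4.79, 3.72 and 5.05 CPM in CTRL and 8.47, 5.99, 7.19 and 7.74 CPM in T1. The groups did not overlap (log2 fold change 0.73 ± 0.27, edgeR adjusted p = 0.157). Unlike the receptors, Vegfc was highest in T1 replicate 1, and at 41 to 205 raw counts per library it is the least sampled member.

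Both angiopoietins stayed within or near their control ranges. Angpt1 spanned 6.35 to 13.1 CPM in CTRL and 5.96 to 11.5 CPM in T1, and its log2 fold change was -0.12 with an interval of -0.74 to 0.50 (0.01 with library totals in place of TMM scaling). Angpt2 spanned 13.5 to 20.7 CPM in CTRL and 17 to 22.3 CPM in T1, with a log2 fold change of 0.12 and an interval of -0.26 to 0.49. Both intervals include 0 and end below the estimate of every receptor. Angpt1 shares 737 exon bases with the antisense gene Gm17473, which had 1 to 24 counts per library against 67 to 400 for Angpt1. Angpt2 lies within the span of Mcph1 on the opposite strand, with 0 exon bases shared. The strand setting of the counting is not given in the sources used here, so reads of the Angpt1 overlap cannot be told apart.

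**Figure D2:**
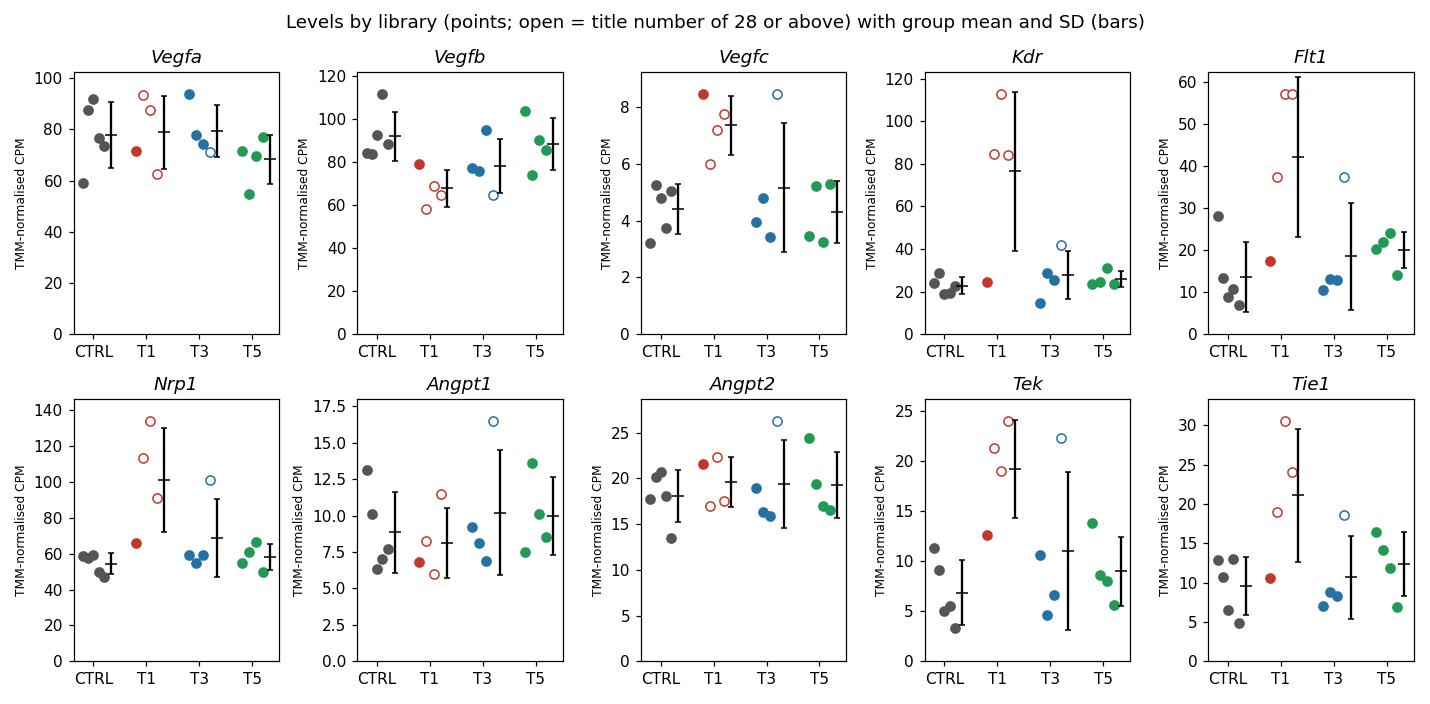
TMM-scaled CPM of each of the 10 genes in the 17 libraries by group (CTRL n = 5, others n = 4); open points are the 4 libraries of title number 28 and above, filled points the other 13, and bars give the group mean with its SD. Kdr, Flt1, Nrp1, Tek and Tie1 are high in the same 4 libraries, while Vegfa, Angpt1 and Angpt2 overlap between all groups.

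Which libraries were left out, and which test was used, decided whether members passed. DESeq2 called 6 members in T1 against CTRL (Kdr, Flt1, Nrp1, Tek and Tie1 higher, Vegfb lower), where it called 9.18% of the genes it adjusted. It gave no adjusted p for Vegfc and Angpt1. Over all alternatives tried, the adjusted p of Kdr ran from 0.000418 in DESeq2 to 0.999. With voom and sample quality weights, limma called these and Vegfc, where it called 24.6% of all genes. Without T1 replicate 1, edgeR itself called 6 (Kdr at a log2 fold change of 2.04 ± 0.23 and adjusted p = 0.00308, and Flt1, Nrp1, Tek, Tie1 and Vegfb) where it called 12.7% of all genes. Without T3 replicate 4, which belongs to neither group but enters the shared fit, edgeR called 5 (Kdr, Flt1, Nrp1, Tek and Vegfb) where 4.25% of all genes were called.

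The 4 libraries of high title number stood apart in the receptors and in Vegfb. For Kdr, Flt1, Nrp1, Tek and Tie1 all 4 of them lay above all other 13 libraries: Kdr spanned 42.1 to 113 CPM in the 4 and 14.7 to 31.3 CPM in the 13, and Tek 19.0 to 24 against 3.36 to 13.8 CPM. For Vegfb all 4 lay below all other 13, at 58.3 to 69.0 against 74.3 to 112 CPM. T1 replicate 1, which is not in this set, was also above all controls for Nrp1 and Tek and below all of them for Vegfb. With a term for these libraries in the edgeR model, the log2 fold changes of T1 against CTRL were 0.55 for Kdr, 0.32 for Flt1, 0.27 for Nrp1, 0.55 for Tek, 0.15 for Tie1 and -0.20 for Vegfb, and 0 members had an unadjusted p under 0.05, where 3.84% of all genes had one. Without the 4 libraries, which leaves T1 replicate 1 alone in its group on the assumption that it varies like the others, Kdr was at 0.09, Flt1 at 0.34, Nrp1 at 0.26, Tek at 0.86, Tie1 at 0.13 and Vegfb at -0.24, while Vegfc was at 0.92 and was the only member with an unadjusted p under 0.05, where 6.14% of all genes had one. The part of the library set in these differences and the part of DSS cannot be told apart for the receptors or for Vegfb.

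**Figure D3:**
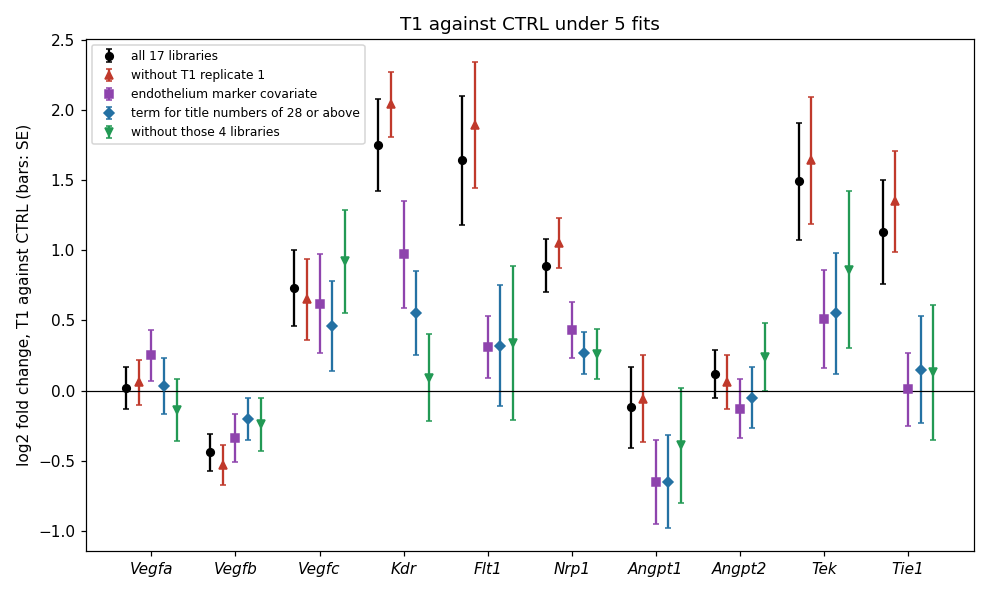
Log2 fold change of each of the 10 genes in T1 against CTRL from 5 edgeR fits: all 17 libraries, without T1 replicate 1, with an endothelium marker term, with a high title number term, and without those 4 libraries; bars are SE. Kdr is at 1.75 with all libraries, 2.04 without T1 replicate 1, and 0.55 and 0.09 with the term or without the 4 libraries.

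Endothelial markers were higher in the same libraries. The 18 endothelium markers, none at 0 in any library, summed to between 141 and 303 CPM in CTRL and between 251 and 571 CPM in T1, while T3 spanned 159 to 377 and T5 spanned 180 to 307 CPM. All 18 lay above 0 in log2 fold change in T1 (median 1.11), where 57.7% of all genes did. Higher at an unadjusted p under 0.05 were 12 of them, against 9.43% of all genes, and 0 passed edgeR's adjusted threshold. With their mean log2 level as a term in the model, the T1 log2 fold change was 0.97 for Kdr, 0.43 for Nrp1, 0.51 for Tek, 0.31 for Flt1 and 0.01 for Tie1, and 2 members, Kdr and Nrp1, were higher at an unadjusted p under 0.05 in place of 6, where 4.32% of all genes were. In that fit Angpt1 was the 1 member lower, at -0.65, in place of Vegfb, where 2.20% of all genes were. Measured against the endothelium markers within each library, Tie1 was at 0.50 ± 0.44 log2 units above their mean in CTRL and 0.45 ± 0.21 in T1 (SD). Kdr was at 1.81 ± 0.51 and 2.21 ± 0.57, Flt1 at 0.91 ± 0.35 and 1.41 ± 0.27, and Tek at -0.02 ± 0.46 and 0.38 ± 0.42, with overlapping ranges for each. Nrp1 went the other way, at 3.07 ± 0.49 in CTRL and 2.76 ± 0.46 in T1, also with overlapping ranges. In the 13 libraries of lower title number Kdr stayed between 14.7 and 31.3 CPM while the markers summed to 141 to 307 CPM. In the 4 of high title number the markers summed to 336 to 571 CPM. The mean log2 CPM of the markers overlapped, at 3.56 to 4.38 in the 4 and 2.27 to 3.68 in the 13.

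Of the markers of mural cells, neurons, macrophages and fibroblasts, 0 were called by edgeR in T1, and all had log2 fold changes above 0. The 10 mural cell markers, none at 0, summed to 52.3 to 143 CPM in CTRL and 99.4 to 196 CPM in T1, and T3 and T5 spanned 62.2 to 559 and 61.2 to 317 CPM. The 9 neuron markers, none at 0, summed to 16.5 to 101 CPM in CTRL and 100 to 364 CPM in T1, and T3 and T5 spanned 22.5 to 430 and 55.7 to 719 CPM. The median log2 fold change in T1 was 1.12 for the mural cell markers and 2.11 for the neuron markers, 0.74 for 8 macrophage markers and 0.54 for 8 fibroblast markers. Other lists were mixed: above 0 were 5 of 6 astrocyte markers (median 0.41), 6 of 7 oligodendrocyte markers (0.25) and 6 of 11 epithelium markers (0.00). Of the erythrocyte markers 0 of 5 were above 0 (-0.15), and of all genes 57.7% were. The 11 epithelium markers summed to 97520 to 161840 CPM in the 4 libraries of high title number and to 135087 to 221781 CPM in the other 13. With the mean of the neuron, astrocyte and oligodendrocyte markers as a term, the T1 log2 fold changes were 1.48 for Kdr, 1.10 for Flt1, 0.77 for Nrp1, 1.25 for Tek and 0.83 for Tie1. The part of the mural cells, macrophages, fibroblasts, erythrocytes and epithelium was not tested.

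**Figure D4:**
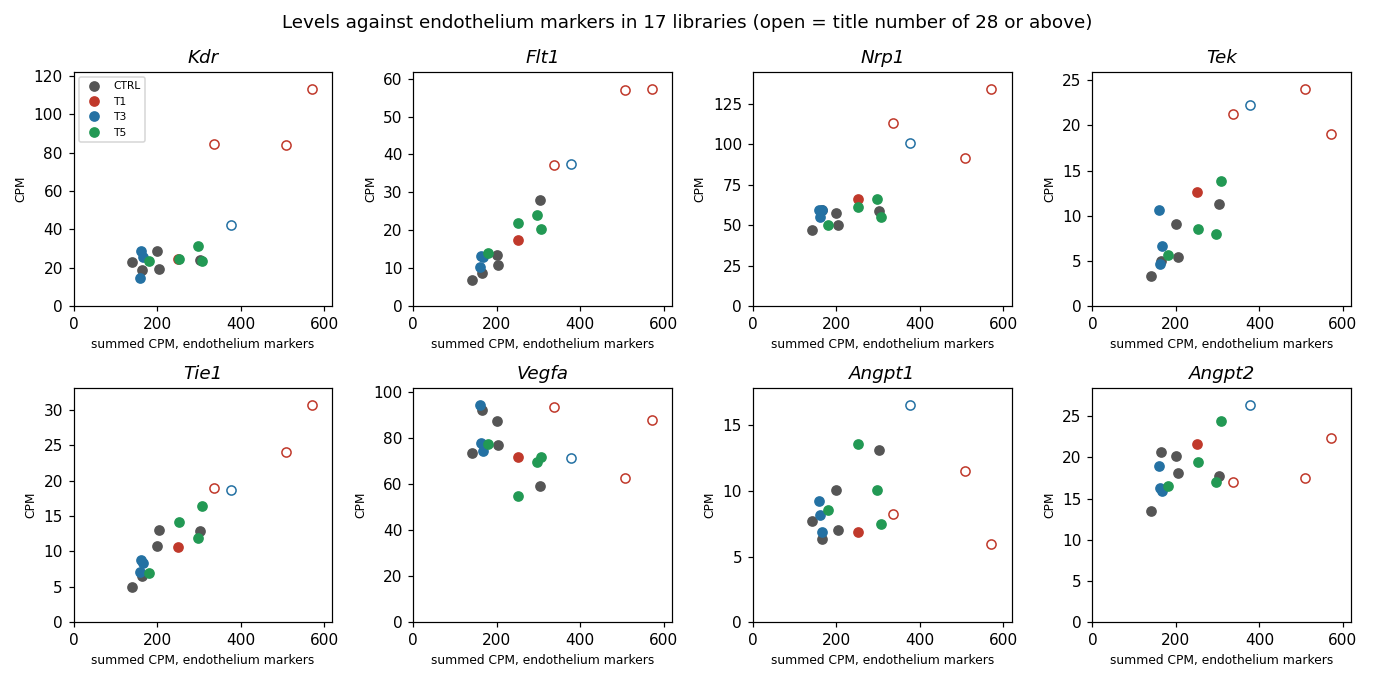
TMM-scaled CPM of 8 members (vertical axes) against the summed CPM of the 18 endothelium markers (horizontal axis) in the 17 libraries, with groups in colour and the 4 libraries of high title number as open points. The open points lie at 336 to 571 CPM of markers and the other 13 at 141 to 307. By mean log2 CPM of the same markers the ranges overlap, at 3.56 to 4.38 and 2.27 to 3.68.

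After 3 days of DSS no member passed a test against CTRL. By edgeR 0 of 10 passed the adjusted threshold and 0 had an unadjusted p under 0.05, where 4.97% of all genes had one. DESeq2 and limma also called 0 members, where they called 0.0119% and 0% of genes. Log2 fold changes ran from -0.23 for Vegfb to 0.69 for Tek, with a median of 0.22 against 0.02 over all genes. The high T3 values came from replicate 4. Kdr read 14.7, 28.8, 25.4 and 42.1 CPM in T3 replicates 1 to 4, Flt1 10.4, 13.1, 12.9 and 37.4 CPM, and Nrp1 59.2, 54.8, 59.5 and 101 CPM. Replicate 4 lay well above every control in each of these 3 genes, and replicate 1 lay below every control for Kdr. Tek at 10.6, 4.61, 6.62 and 22.3 CPM and Tie1 at 7.03, 8.84, 8.36 and 18.6 CPM had the same outlying library. Without it the T3 log2 fold changes were 0.02 for Kdr, -0.17 for Flt1, 0.08 for Nrp1, 0.06 for Tek and -0.25 for Tie1, so that the signs of Flt1 and Tie1 turned. Of the ligands, Vegfa spanned 71.3 to 94.0, Vegfb 65.0 to 95, Vegfc 3.42 to 8.45, Angpt1 6.89 to 16.5 and Angpt2 15.9 to 26.3 CPM in T3. Replicate 4 was the highest T3 library for Vegfc, Angpt1 and Angpt2 and the lowest for Vegfa and Vegfb.

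The step from T1 to T3 compares the 2 DSS durations directly. By edgeR 0 members passed the adjusted threshold, and 4 were lower at an unadjusted p under 0.05, where 4.63% of all genes were: Kdr at a log2 fold change of -1.46 ± 0.36, Flt1 at -1.19 ± 0.49, Tie1 at -0.97 ± 0.39 and Nrp1 at -0.56 ± 0.21. The edgeR adjusted p was 0.577 for each of them. DESeq2 called 1 member, Kdr (adjusted p = 0.0219), where it called 0.165% of genes, and limma called 6 members where it called 24.5%. With the term for the 4 libraries, Kdr was the 1 member lower at an unadjusted p under 0.05, where 1.85% of all genes were. This comparison and the previous ones share the T1 or T3 libraries and are given side by side only.

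After 3 days of DSS and 2 days of water, T5, no member passed a test against CTRL either. By edgeR 0 of 10 passed the adjusted threshold against CTRL and 0 had an unadjusted p under 0.05 (7.83% of all genes), with 0 called by DESeq2 (0.0991% of genes) and by limma (0%). Kdr read 23.7, 24.3, 31.3 and 23.5 CPM and Vegfa 71.7, 54.9, 69.5 and 77.1 CPM in T5. Replicate 3 for Kdr and replicate 2 for Vegfa lay just outside the CTRL range. The log2 fold changes were 0.18 for Kdr, with an interval of -0.54 to 0.90, and -0.19 for Vegfa, with an interval of -0.51 to 0.13. Flt1 had the highest log2 fold change of the members, 0.56 ± 0.46, from 20.2, 21.9, 24.1 and 14.0 CPM. All were inside the CTRL range, but only because of CTRL replicate 1. The other controls read 13.4 CPM or less for Flt1, below every T5 library. Without single libraries the T5 log2 fold change of Flt1 ran from 0.38 to 1.01, and 0 members were called. Nrp1 spanned 49.8 to 66.4, Tek 5.64 to 13.8, Tie1 6.98 to 16.4 and Vegfb 74.3 to 104 CPM in T5. From T3 to T5, 0 members had an unadjusted p under 0.05 (10.5% of all genes), 0 passed the adjusted threshold of edgeR, and DESeq2 (0.520% of genes) and limma (0%) called 0. In the test for a difference among any of the 4 groups, 7 members had an unadjusted p under 0.05 (18.0% of all genes) and 0 passed after adjustment, with Kdr lowest at an adjusted p of 0.103 by edgeR. DESeq2 called 4 members in that test, Tek, Kdr, Flt1 and Nrp1 (6.11% of genes), and limma 6 (23.2%).

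**Figure D5:**
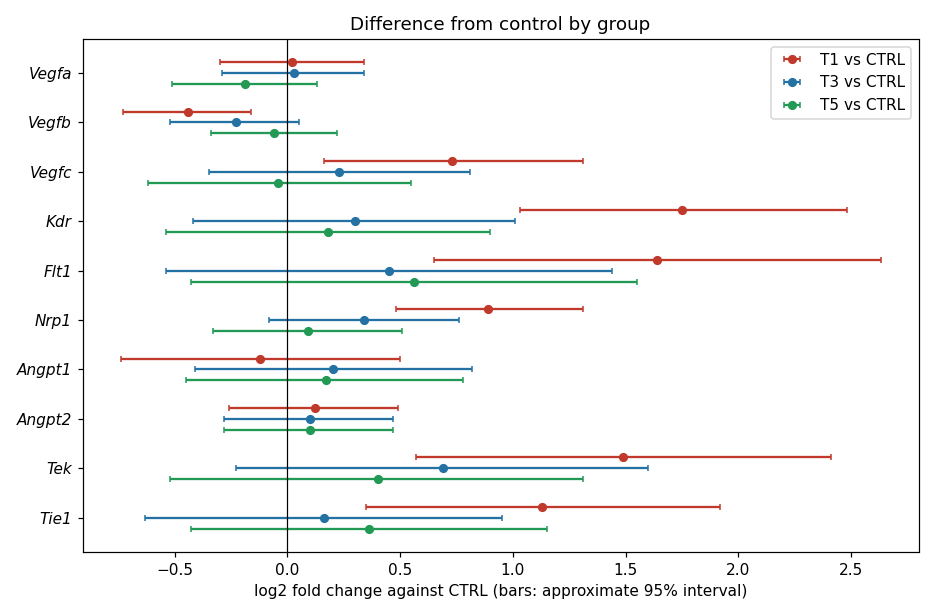
Log2 fold changes of the 10 genes in T1, T3 and T5 against CTRL from edgeR, with approximate 95% intervals as bars. In T1 the intervals of Kdr, Flt1, Nrp1, Tek, Tie1 and Vegfc lie above 0 and that of Vegfb below it, and in T3 and T5 every interval includes 0.

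The balance of ligand to receptor differed between the same libraries. Vegfa exceeded Kdr by 1.30 to 2.29 log2 units of CPM in the CTRL libraries. In T1 the difference was 1.55 in replicate 1 and 0.14, -0.37 and -0.42 in the others, and in T3 replicate 4 it was 0.76. In the other 13 libraries it ranged from 1.15 to 2.67. The balance of angiopoietins showed no such split: Angpt2 exceeded Angpt1 by 1.06 ± 0.49 log2 units in CTRL, 1.30 ± 0.59 in T1, 0.98 ± 0.22 in T3 and 0.98 ± 0.51 in T5 (SD). These differences are not per length, and they compare libraries for a fixed pair of genes.

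The other genes of these pathways were followed in lists fixed with earlier results of these data known. Among 13 tested related ligands and receptors, all 13 had log2 fold changes above 0 in T1 (median 0.49), where 57.7% of all genes did. Higher at an unadjusted p under 0.05 were 5, against 9.43% of all genes, and 0 were called by edgeR after adjustment. The mean log2 CPM of the list was 3.23 to 3.78 in the 4 libraries of high title number and 2.15 to 2.98 in the other 13, with T1 replicate 1 at 2.47 inside the CTRL range of 2.15 to 2.54. Summed CPM overlapped, at 386 to 590 in the 4 libraries and 308 to 430 in the other 13. Nrp2, the second neuropilin, stood at 16.7 ± 7.0 CPM in T1 and 7.67 ± 3.38 in CTRL (SD), a log2 fold change of 1.12 ± 0.38. Ptprb, the phosphatase VE-PTP that acts on Tie2, stood at 29.4 ± 8.31 and 10.6 ± 7.34 CPM, a log2 fold change of 1.47 ± 0.59. Itgb3, the integrin beta-3 subunit, had a log2 fold change of 1.52 ± 0.55. The level of Ptprb varied most in T3, at 24.6 ± 26.1 CPM.

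Genes that VEGF is known to induce in endothelium had a median log2 fold change of 0.75 in T1, 11 of 12 positive (57.7% of all genes). At an unadjusted p under 0.05, 4 were higher (9.43% of all genes) and 1 lower (11.7%), with 0 called by edgeR after adjustment. The mean log2 CPM of the list was 3.11 to 3.60 in the 4 libraries of high title number and 1.64 to 3.07 in the other 13. T1 replicate 1 at 2.11 lay inside the CTRL range of 1.64 to 2.56. As summed CPM the ranges of this list overlapped, at 362 to 447 in the 4 libraries and 213 to 411 in the other 13. Esm1, which encodes endocan of endothelial tip cells, stood at 8.96 ± 3.16 CPM in T1 and 3.24 ± 1.35 in CTRL, with a log2 fold change of 1.47 ± 0.34, and at 3.11 ± 0.720 CPM in T3. Ptgs2, the inducible cyclooxygenase, had a log2 fold change of 1.73 ± 0.46 in T1 and 0.26 ± 0.46 in T3. Nr4a2, an immediate early nuclear receptor, was at 1.11 ± 0.35, 1.17 ± 0.35 and 1.0 ± 0.35 in T1, T3 and T5, so that it was about as high in T3 and T5 as in T1. Dll4, the Notch ligand of tip cells, was the fourth that was higher, and Rcan1, an inhibitor of calcineurin, was the 1 that was lower. Ptgs2 and Nr4a2 are also made by neurons.

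Downstream and upstream signalling genes showed no common direction. Of 24 tested genes of VEGF receptor signalling, 12 were positive and 12 negative in T1 (median 0.01), with 2 higher and 2 lower at an unadjusted p under 0.05. Over all genes 57.7% were positive, and 9.43% were higher and 11.7% lower at that threshold, shares that also apply to the lists below. Plcg1, the phospholipase that binds activated VEGFR2, had a log2 fold change of 0.38 ± 0.15, and the small GTPase gene Hras of -0.56 ± 0.19. Pik3r1 was the other one higher and Cdc42 the other one lower. Of 9 Tie2 signalling genes, 4 were positive with a median of -0.06, and Grb7 was the 1 lower at an unadjusted p under 0.05. Among 9 oxygen sensing genes upstream of Vegfa the median was -0.01, with 2 higher and 1 lower. Epas1, which encodes HIF-2 alpha, was at 0.43 ± 0.15 and its partner Arnt at 0.44 ± 0.14, against -0.21 ± 0.09 for Vhl, which marks these factors for degradation. By edgeR 0 genes of these 3 lists were called after adjustment.

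The genes whose levels ran most like Flt1, Tie1 and Tek were in part shared, Pecam1 by Flt1 and Tek and Mmrn2 by Flt1 and Tie1. Over the 17 libraries, Flt1 was most like Pecam1 (Pearson r = 0.95 of log2 CPM), Mmrn2 and Esam, and Tie1 most like Rnf213 (r = 0.95), Acvrl1 and Mmrn2. Tek was most like Adam12 and Pecam1 (r = 0.91 each). In the other 13 libraries, those of lower title number, the r of Flt1 with Pecam1 was 0.86 and that of Tie1 with Rnf213 was 0.88. Kdr was most like Rad54l2 (r = 0.93), Myh9 and Arhgef15, and the genes most like Nrp1 included Asap1 (r = 0.92) and Stk38. In the 13 libraries these r were 0.66 for Kdr with Rad54l2 and 0.33 for Nrp1 with Asap1. Between members, Flt1 and Tie1 had r = 0.92 over 17 libraries and 0.80 over the 13, whereas Kdr and Nrp1 had 0.89 and 0.21. These values describe libraries that share depth and composition.

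The ligands had other nearest genes. Vegfa was most like Trmt1l (r = 0.92, and 0.91 in the 13 libraries), Tob1 and Ccdc157, and Vegfb most like Pcbp1 (r = 0.93), Smim19 and Nosip. Vegfc was most like Zfp101 (r = 0.85), Angpt1 most like Trnp1 (r = 0.81) and Angpt2 most like Cavin1 (r = 0.82). None of the nearest 3 genes of a ligand was among the nearest 3 of a receptor. With 3 taken from 13414 genes this does not set ligands apart, as Kdr and Nrp1 shared none with another receptor either. Vegfa and Kdr had r = 0.06 over the 17 libraries and -0.43 over the 13, and Vegfa and Flt1 had -0.27 and -0.70.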

How the data were processed

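RNA sequencing of whole choroid plexus gave 17 libraries, put in 4 groups by their DSS time point labels. The authors deposited 1 table of raw counts by Ensembl gene. Per the submitters' processing notes, the tools were STAR 2.6.1b, featureCounts 1.6.4 and Trimmomatic 0.39, on GRCm38. The strand setting, annotation release and rule for multi-mapping reads were not stated in these sources. Of 55487 identifiers, 55394 matched GENCODE M21.

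Counts were scaled by TMM and tested with edgeR 4.0.16 (R 4.3.3): filterByExpr by group, 1 mean per group over all 17 libraries, robust quasi-likelihood F tests, and Benjamini-Hochberg adjustment over 16851 genes at 0.05. The biological coefficient of variation was 37.6%. The SE was taken as the log2 fold change over the square root of F, and the intervals use 13 degrees of freedom, so both are approximate. Alternatives were DESeq2 1.42.0, limma 3.58.1, other scalings and filters, marker or library terms, and leaving out libraries. Log2 CPM values have a prior count of 2.

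All 10 members are named; from each pathway list, up to 3 genes with the lowest p against CTRL were eligible where none was called, and others are named to account for small counts. The 3 genes most like each member have the highest Pearson r over 17 libraries among genes averaging 1 CPM or more. One of them, for Nrp1, is not reported here. The members and lists were chosen with earlier results of these data known. Replicate numbers only name libraries.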

Additional observations from a re-analysis of the deposited data

Results flagged for a closer look

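Within 40 groups of 4 or 5 libraries (10 genes in 4 groups), 2 held a library far from the others, and chance alone gives about 1 in 20. Kdr in T5 replicate 3 stood at 31.3 CPM, with a gap to the nearest T5 library of 0.88 of the group's range on the log2 scale. Nrp1 in T3 replicate 4 stood at 101 CPM, with a gap of 0.87 of the range. T3 replicate 4 is the T3 library of high title number.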

How the results depend on the processing

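Calls of members in T1 against CTRL ranged from 0 to 6 when single libraries were left out (genes called over all: 0 to 2203), and were 7 by limma (4140 genes) and 6 by DESeq2 (826 genes). Calls came without T1 replicate 1 (6 members) and without T3 replicate 4 (5). In T3 against T1, 6 members were called by limma (4130 genes) and 1 by DESeq2 (24 genes), with 0 to 3 genes when libraries were left out. For any group, 6 were called by limma (3907 genes), 4 by DESeq2 (967 genes) and 0 to 2 without single libraries (0 to 1222 genes), and 10 genes were called without a filter. DESeq2 called 2 genes in T3 and 16 in T5 against CTRL and 84 in T5 against T3, where leaving out libraries gave 0 to 1. The cause was not tested.

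Members higher in T1 at an unadjusted p under 0.05 numbered 0 with a term for high title numbers, 1 without the 4 libraries and 2 with the endothelium term, and members lower 0 with that title number term and without the 4. In T3 against T1, 1 was higher with the brain term or the endothelium term (Angpt1) or limma (Vegfb). There, 1 was lower with the title number term, without the 4 or with the endothelium term, 2 with the brain term, and 1 to 6 without single libraries. Counts made at the unadjusted threshold were added after the data were seen.

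Signs of log2 fold changes turned as follows, and edgeR had called 0 members in any comparison. In T1 against CTRL they turned for Vegfa (-0.01 without a filter, -0.14 without the 4 libraries, -0.07 to 0.12 without single libraries), Angpt1 (0.01 with library totals, which shift the median gene by 0.13; -0.33 to 0.07) and Angpt2 (-0.05 with the title number term, -0.13 with the endothelium term). In T3 against CTRL, the title number term gave Kdr -0.09, Flt1 -0.14, Angpt1 -0.04 and Tie1 -0.25, and leaving out the 4 gave Vegfc -0.12, Flt1 -0.15, Angpt1 -0.13, Angpt2 -0.09 and Tie1 -0.24. The endothelium term gave Tie1 -0.04, and limma gave Vegfc -0.10, Angpt2 -0.07 and Tie1 -0.02. Without single libraries the ranges were -0.06 to 0.09 for Vegfa, -0.12 to 0.38 for Vegfc, -0.17 to 0.89 for Flt1, -0.14 to 0.38 for Angpt1, -0.09 to 0.18 for Angpt2 and -0.25 to 0.31 for Tie1.

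In T5 against CTRL, the brain term gave Vegfb 0.00, Kdr -0.06, Nrp1 -0.03 and Angpt1 -0.12, and the endothelium term gave Kdr -0.13, Nrp1 -0.11, Angpt1 -0.04, Angpt2 -0.02, Tek -0.06 and Tie1 -0.13. Without single libraries the ranges were -0.14 to 0.02 for Vegfb, -0.16 to 0.08 for Vegfc, -0.04 to 0.35 for Angpt1 and -0.04 to 0.17 for Angpt2. In T3 against T1, Vegfa was at -0.10 with library totals, 0.00 with the title number term, -0.15 with the brain term, -0.19 with the endothelium term and -0.01 by limma (-0.10 to 0.08 without single libraries). Angpt2 was at 0.00 without a filter or with only the 2 groups, 0.07 with the title number term and 0.17 with the endothelium term (-0.22 to 0.07), and Angpt1 at -0.02 to 0.52. In T5 against T3, the title number term gave Kdr 0.27, Nrp1 0.00, Angpt1 0.20, Angpt2 0.07 and Tek 0.20, and leaving out the 4 gave Vegfc 0.08, Kdr 0.15, Nrp1 0.00, Angpt1 0.30, Angpt2 0.18 and Tek 0.32. Limma gave Kdr 0.12, Angpt1 0.20, Angpt2 0.15 and Tek 0.31. Flt1 was at -0.01 with library totals, -0.20 with the brain term and -0.12 with the endothelium term, which gave Tie1 -0.09. Angpt2 was at 0.00 with DESeq2 or its size factors and 0.03 with the brain term. Without single libraries the ranges were -0.42 to 0.08 for Vegfc, -0.32 to 0.15 for Kdr, -0.07 to 0.72 for Flt1, -0.34 to 0.00 for Nrp1, -0.22 to 0.30 for Angpt1, -0.13 to 0.18 for Angpt2 and -0.57 to 0.32 for Tek.

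Where 1 library was left alone in a group, it was assumed to vary like the others. No paired analysis was possible because the replicate numbers were given in accession order and pair no libraries.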
